A study of Mus musculus with 33 samples.

Results

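The 6 genes described here encode receptors, or parts of receptors, for the alarmin cytokines of the interleukin-1 (IL-1) family, and were taken by gene identifier from the 31054 genes counted in every library. They are Il1rl1 (the IL-33 receptor ST2), Il18r1 and Il18rap (the IL-18 receptor and its accessory chain), Il1rap (the accessory chain that ST2 and the IL-1 receptor share), Il1r1 (the IL-1 receptor) and Il1r2 (the IL-1 decoy receptor). The rule used no measured value, but the genes were chosen with earlier results of these data known, so they are not a blind list. All 6 passed the filter on low counts, which kept the 25347 genes with at least 1 CPM (counts scaled to a common library total) in at least 1 library.

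The study compared Tregs of lymphoid organs and grafts in mice that tolerate an islet xenograft. Bulk RNA-Seq was available for 33 libraries of sorted mouse cells, 3 for each of 11 subsets. All mice carried the DEREG transgene (diphtheria toxin receptor and EGFP under the Foxp3 promoter) on a C57BL/6 background, so regulatory T cells (Tregs) were sorted as CD4+GFP+ cells. Tolerant mice had received 4000 islet equivalents of porcine neonatal islet cell clusters (NICC) under the kidney capsule with MR-1, an antibody to CD154, at 500 μg per dose and CTLA4-Fc at 500 μg, and their cells were taken at day 100. Naive mice had neither graft nor treatment. From the spleen (SP), the subsets were CD45+CD4- cells and CD4+GFP- (CD4+Foxp3-) T cells of naive and of tolerant mice, naive Tregs, and the CD127-/lo and CD127hi Tregs of tolerant mice. From the graft came Tregs not divided by CD127, and from the graft-draining lymph node (DLN) came naive, CD127-/lo and CD127hi Tregs. Each library was made from a pool of several mice. By the study's methods the naive mice of each tissue were too few for separate pools of the stated size, so the naive pools must share animals, and p-values measure only the spread between these samples, which may be technical. Tolerant mice were too few for each subset to have its own, so tolerant subsets share animals, and the tests between them ignore this. Naive lymph node mice were female and tolerant mice male, and DLN libraries were sequenced on another instrument than the rest, so sex, tissue and sequencer cannot be told apart from the groups they coincide with.

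IL-33, IL-18 and IL-1 are released or activated when cells are stressed or die, which is why they are called alarmins. Each cytokine first binds its own receptor chain, and an accessory chain then joins to bring the intracellular domains together and recruit the adaptor MyD88, the IRAK kinases and TRAF6 on the way to NF-kB. The decoy receptor Il1r2 binds IL-1 without a signalling domain, and a soluble form of ST2 captures IL-33. ST2 is known on Tregs of non-lymphoid tissues and on mast cells, basophils and type 2 lymphocytes, and the IL-18 receptor on NK cells and on Th1 and memory T cells.

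Il1rl1, Il18r1, Il18rap, Il1r1 and Il1r2 lie in a gene cluster on chromosome 1 of mm10 (GRCm38), together with the IL-36 receptor gene Il1rl2, all on the plus strand within 478 kb (chr1:40074079-40551705). In order these are Il1r2, Il1r1, Il1rl2, Il1rl1, Il18r1 and Il18rap. Il1rl1 (chr1:40429570-40465415) ends 136 bases before the start of Il18r1 (chr1:40465552-40500854). Il1rap stands apart on chromosome 16 (chr16:26581704-26730117). Il1rl1 has 5 annotated transcripts, and the counts per gene do not separate soluble from membrane-bound ST2. Among the genes counted, antisense Gm20319 shares 552 exon bases with Il1rap. Without strand, read pairs on these bases are ambiguous and were left out of both counts.

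All 6 genes had promoter stretches in RefSeq. The 250 bases before the distal of the 2 RefSeq starts of Il1rl1 are shown because the levels of this gene separated the subsets most, beside the same stretch before Il18rap, the receptor gene whose highest mean was outside the CD4+ cells (RefSeq, GRCm38.p6, plus strand). Capitals mark GATAAG on either strand, the core letters that GATA factors are known to bind.
Il1rl1, chr1:40429320-40429569: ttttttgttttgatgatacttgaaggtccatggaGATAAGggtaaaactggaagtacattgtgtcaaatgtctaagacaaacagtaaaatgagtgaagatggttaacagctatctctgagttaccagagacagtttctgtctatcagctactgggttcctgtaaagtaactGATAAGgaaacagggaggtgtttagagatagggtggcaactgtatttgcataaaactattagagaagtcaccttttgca
Il18rap, chr1:40515112-40515361: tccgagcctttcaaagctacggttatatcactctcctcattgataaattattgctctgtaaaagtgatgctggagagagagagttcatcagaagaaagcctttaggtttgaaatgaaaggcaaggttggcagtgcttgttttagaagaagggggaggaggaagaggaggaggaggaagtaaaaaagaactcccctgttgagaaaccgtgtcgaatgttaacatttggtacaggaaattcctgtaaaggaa
The Il1rl1 stretch held GATAAG 2 times and the Il18rap stretch had no match. The stretch before the other Il1rl1 start (chr1:40439379-40439628), which overlaps an Il1rl1 exon, also had none. GATAAG was present in 6.55% of all 32851 promoter stretches of that length. TGANTCA, the AP-1 core, matched in neither printed stretch and in 6.75% of all. TGTGGT was also searched, and matched 1 time before the other Il1rl1 start, in neither printed stretch and in 14% of all. The motifs were chosen after the sequences had been seen, and a match is only a description of the letters.

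Counts on genes ranged from 2550698 to 4615283 read pairs in the 24 spleen and graft libraries and from 844039 to 1935323 in the 9 DLN libraries, so that a count of 3 corresponded to 0.637 to 1.18 CPM in the former and to 1.64 to 3.11 CPM in the latter. Foxp3, which defines Tregs, was at 165.7 to 671.8 CPM in the 21 Treg libraries and at 0 to 8.20 CPM in the other 12. Il7r, which encodes CD127, was at 1082 to 1236 CPM in SP/CD127hi and 270 to 360 CPM in SP/CD127-/lo Tregs. In the DLN the corresponding ranges of Il7r, 476 to 678 and 265 to 784 CPM, overlapped, so the RNA did not separate the sorted DLN fractions. Graft Treg libraries held 23.2 to 896 CPM of 5 kidney epithelium markers in sum, and no library of another subset exceeded 16.9 CPM. In bulk samples, fewer cells of a type and less RNA per cell cannot be told apart.

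Il1rl1, whose protein ST2 binds IL-33, was high in graft Tregs and SP/CD127hi Tregs and near the detection limit in naive CD4+Foxp3- cells. Graft Tregs had 475, 126 and 131 CPM in replicates 1, 2 and 3, a mean of 244 ± 200 (SD, n = 3). SP/CD127hi Tregs had 147, 114 and 237 CPM (166 ± 63.6, SD, n = 3). The ranges of these subsets overlapped, and every library of either lay above every other spleen library. SP/naive Tregs had 23.4, 43.6 and 15.4 CPM (27.5 ± 14.6) and SP/CD127-/lo Tregs 7.35, 4.03 and 16.7 CPM (9.36 ± 6.58). SP/naive CD4+ cells had 0, 1.58 and 0 CPM, from 5 read pairs in all. SP/tolerant CD4+ cells had 2.05, 14.7 and 0 CPM and the CD45+CD4- cells between 0 and 9.89 CPM, with replicate 2 the highest in each of these 4 Foxp3- subsets. In the DLN the libraries of 1 subset disagreed with one another. DLN/CD127hi Tregs had 177, 3.15 and 2.07 CPM, so 1 library carried the mean of 60.8 ± 101 (SD, n = 3). DLN/CD127-/lo Tregs had 2.18, 65.7 and 29.4 CPM and DLN/naive Tregs 5.68, 39.2 and 22.9 CPM, and the 3 DLN subsets overlapped.

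Mast cell and basophil markers (Cpa3, Kit, Fcer1a, Ms4a2 and Mcpt8), cells that also carry ST2, summed to 5.36 to 10.8 CPM in graft Tregs and 13.8 to 44.6 CPM in SP/CD127hi Tregs, against 5.28 to 17.6 CPM in SP/CD127-/lo Tregs. Most of that was Cpa3, and Fcer1a was at 0 in every library of these 3 subsets, Mcpt8 in the graft and SP/CD127-/lo libraries, and Ms4a2 in the SP/CD127hi and SP/CD127-/lo libraries. The part of these cells in the Il1rl1 level was not tested.

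**Figure D1:**
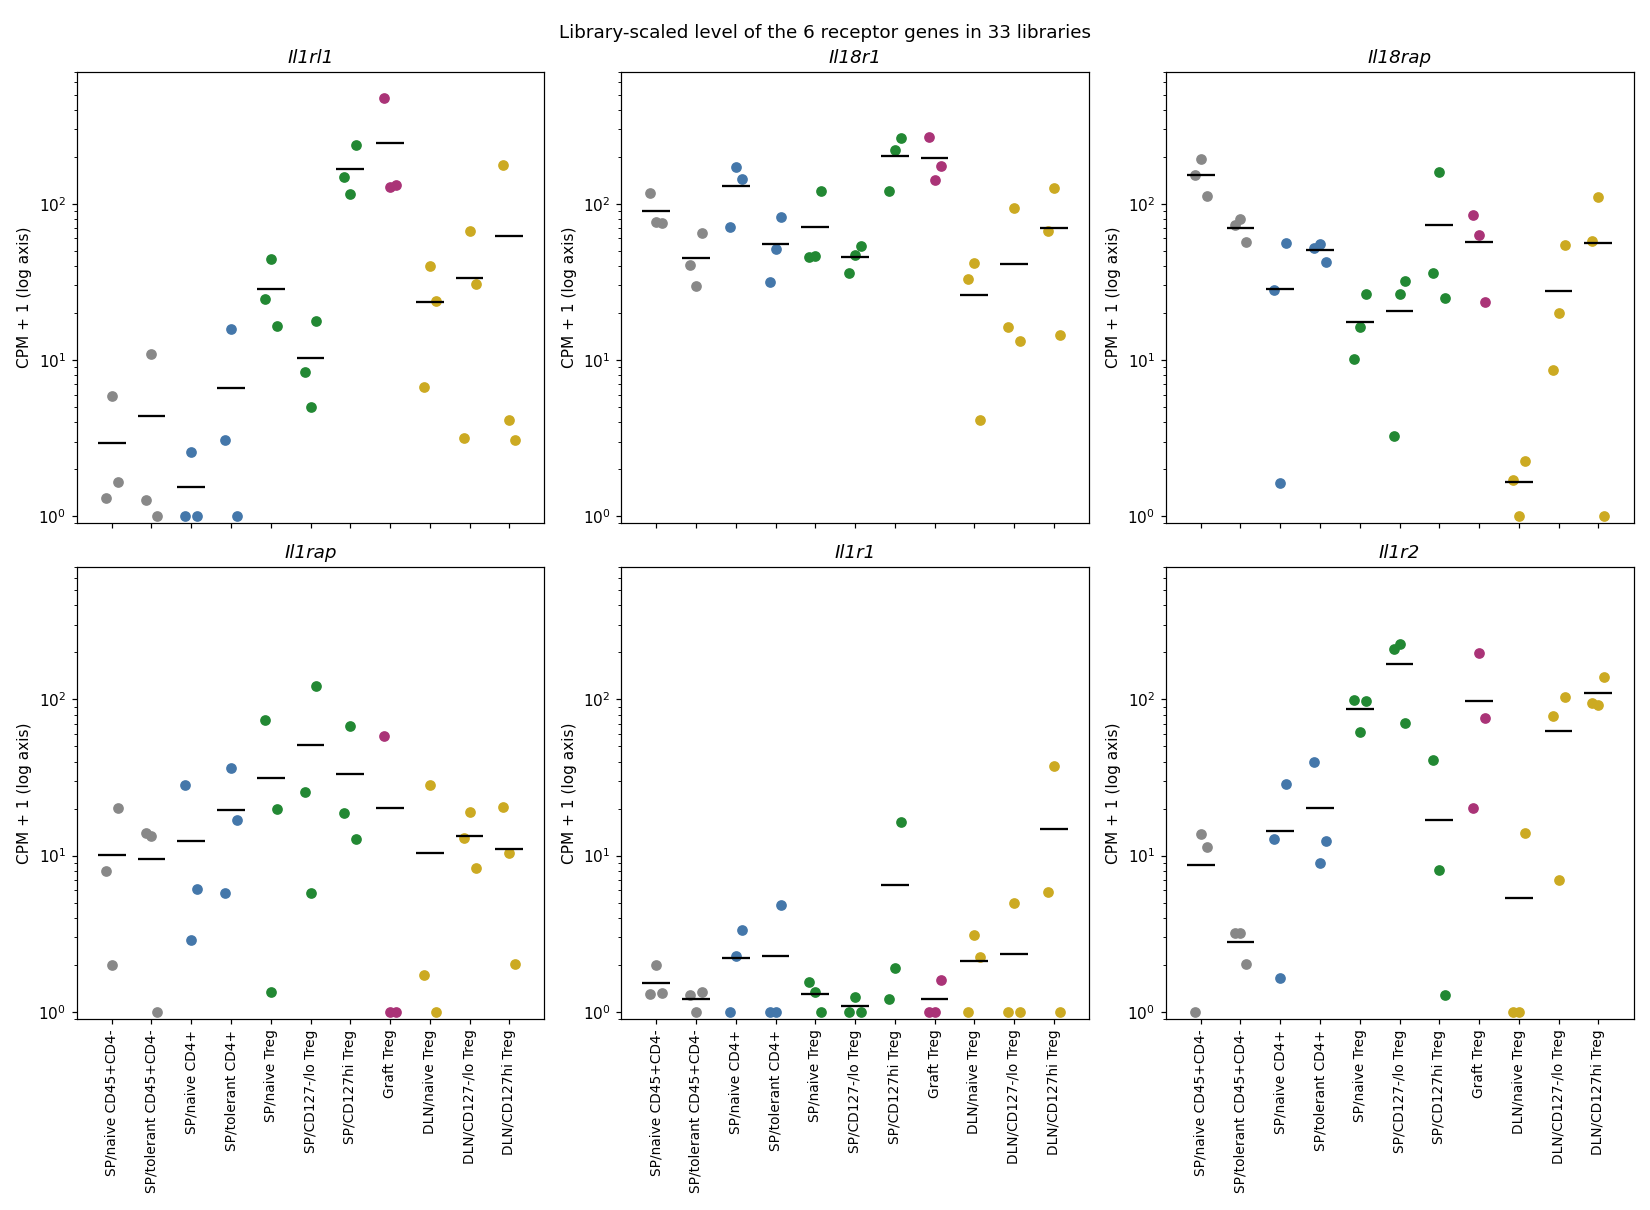
CPM plus 1 (log axis) of the 6 receptor genes in each of the 33 libraries, by subset, with grey for CD45+CD4- cells, blue for CD4+Foxp3- T cells, green for splenic, purple for graft and yellow for DLN Tregs, and a bar at the mean of 3 libraries. All 6 graft and SP/CD127hi libraries stand at or above 114 CPM of Il1rl1, while Il1rap and Il1r1 scatter within most subsets.

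Il18r1, the ligand-binding chain for IL-18, was expressed in every subset, with the highest means in the same subsets as Il1rl1. SP/CD127hi Tregs had 120, 221 and 265 CPM (202 ± 74.1, SD, n = 3) and graft Tregs 268, 141 and 174 CPM (194 ± 66.2). SP/CD127-/lo Tregs had 35.03, 45.8 and 52.8 CPM (44.5 ± 8.93), below every library of those subsets. Unlike Il1rl1, the gene was also high in SP/naive CD4+ cells, at 70.5, 170 and 144 CPM, which overlapped the SP/CD127hi range. SP/tolerant CD4+ cells had 30.8, 50.3 and 81.4 CPM, SP/naive Tregs 44.6, 45.3 and 120 CPM, and CD45+CD4- cells 74.7 to 116 CPM in naive and 28.6 to 64.1 CPM in tolerant mice. DLN Tregs ranged from 3.10 to 126 CPM with no gap between their subsets.

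Il18rap, the chain that IL-18 signalling also needs, had its highest mean in CD45+CD4- cells of naive spleens, at 151, 192 and 111 CPM (151 ± 40.8, SD, n = 3). These cells also had the most RNA of 6 CD8 T cell and NK cell markers, 809 to 1565 CPM in sum, against 92.5 to 168 CPM in SP/naive CD4+ cells. CD45+CD4- cells of tolerant spleens overlapped them, at 644 to 881 CPM. Of these markers, tolerant against naive means were 140 against 257 CPM for Cd8a and 122 against 268 CPM for Cd8b1, without overlap in either (adjusted p = 1 for both), and the other 4 overlapped, among them the NK cell gene Ncr1 at 39.1 against 38.5 CPM. The part of those cells in the Il18rap level was not tested. CD45+CD4- cells of tolerant spleens had 72.4, 79.2 and 55.7 CPM and SP/tolerant CD4+ cells 51.5, 54.6 and 41.7 CPM, with close replicates in both. Tregs were more variable. SP/CD127hi Tregs had 34.8, 159 and 24.03 CPM and graft Tregs 83.4, 62.3 and 22.3 CPM, while SP/naive and SP/CD127-/lo Tregs ranged from 2.26 to 31.1 CPM. In DLN/naive Tregs only 3 read pairs were counted in 3 libraries (0.710, 0 and 1.24 CPM). DLN/CD127-/lo Tregs had 7.63, 18.9 and 53.2 CPM, all above those, and DLN/CD127hi Tregs had 56.5, 110 and 0 CPM.

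Il1rap, the shared accessory chain, was detected in each subset but scattered widely among the libraries of 1 subset. Graft Tregs had 57.7, 0 and 0 CPM, although the same libraries held 475, 126 and 131 CPM of Il1rl1. SP/naive Tregs had 72.4, 0.338 and 18.9 CPM and SP/CD127-/lo Tregs 24.6, 4.78 and 121 CPM. SP/CD127hi Tregs had 17.8, 66.7 and 11.9 CPM, and DLN Tregs ranged from 0 to 27.3 CPM. The 4 Foxp3- subsets lay between 0 and 35.1 CPM, overlapping the Tregs.

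Il1r1, the signalling receptor for IL-1, was at or under 3 counts in 26 of 33 libraries. The exceptions with more than 20 counts were SP/CD127hi Treg replicate 3, with 53 counts (15.3 CPM), and DLN/CD127hi Treg replicate 2, with 46 counts (36.3 CPM). The other SP/CD127hi libraries had 1 and 3 counts and the other DLN/CD127hi libraries 5 and 0. Single libraries thus set the means, and no fold change is given for this gene.

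Il1r2, the IL-1 decoy receptor, had its highest levels in Tregs, but within the spleen it was low where Il1rl1 was high. SP/CD127-/lo Tregs had 210, 225 and 69.5 CPM (168 ± 85.9, SD, n = 3) and SP/naive Tregs 98.6, 60.9 and 96.7 CPM (85.4 ± 21.2). SP/CD127hi Tregs had 40.1, 7.04 and 0.289 CPM (15.8 ± 21.3), below every library of those subsets and overlapping SP/naive CD4+ cells (11.8, 0.633 and 27.8 CPM). Graft Tregs had 19.2, 197 and 74.8 CPM and spanned both ranges. In the DLN the order was another. DLN/CD127hi Tregs had 94.4, 91.4 and 139 CPM (108 ± 26.6) and DLN/naive Tregs 0, 0 and 13.02 CPM, while DLN/CD127-/lo Tregs had 76.9, 5.97 and 102 CPM and overlapped both. CD45+CD4- cells had 0 to 12.7 CPM. Neutrophils are known to carry Il1r2, and 5 neutrophil markers summed to at most 1.17 CPM in SP/CD127-/lo Tregs and 0 in graft Tregs, with up to 19.5 CPM in DLN/CD127hi Tregs. The 6 macrophage and monocyte markers summed to 7.30 to 299 CPM in SP/CD127-/lo and 121 to 244 CPM in SP/CD127hi Tregs. They summed to 0 to 470 CPM in graft and 576 to 849 CPM in DLN/CD127hi Tregs. The part of other cells in the Il1r2 level was not tested.

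Ordered by mean, neighbouring subsets overlapped for every gene with 1 exception, Il18rap, where SP/naive Tregs (16.6 CPM) stood above DLN/naive Tregs (0.650 CPM) without overlap. Genes were set side by side per kb of exon over all annotated transcripts, from 1.91 kb for Il1r2 to 11.4 kb for Il1rap. Which transcripts were expressed is not known, so the order of genes also depends on the annotation. On this scale the highest mean was that of Il1r2 in SP/CD127-/lo Tregs (88.2 CPM per kb). Il18r1 peaked at 41.9 CPM per kb in SP/CD127hi Tregs, Il1rl1 at 35.4 in graft Tregs, Il18rap at 22.4 in SP/naive CD45+CD4- cells, Il1rap at 4.41 in SP/CD127-/lo Tregs and Il1r1 at 2.15 in DLN/CD127hi Tregs. In graft Tregs the level of Il1rap, 1.69 CPM per kb, was well below those of Il1rl1 and Il1r2.

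**Figure D2:**
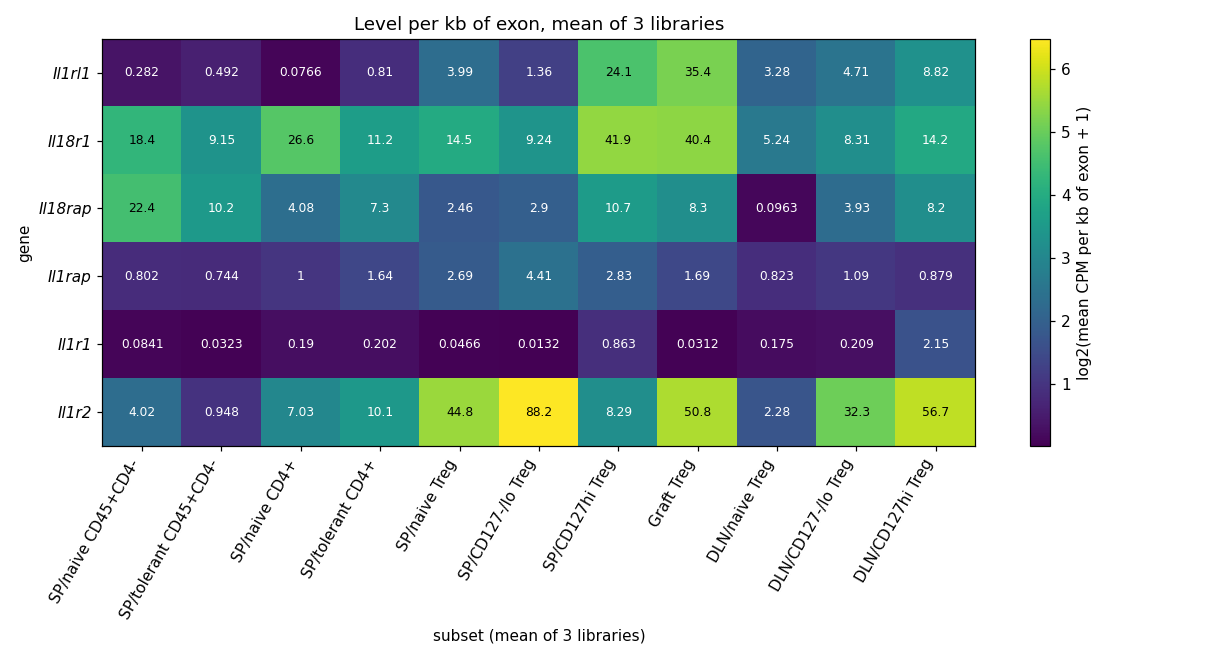
Mean CPM per kb of exon over 3 libraries for each gene (rows) and subset (columns), with the colour on a log2 scale of that value plus 1. Il1rl1 and Il18r1 are brightest in SP/CD127hi and graft Tregs, and Il1r2 is brightest in SP/CD127-/lo Tregs at 88.2 CPM per kb.

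The first comparison asked whether any receptor differed among the 8 spleen and graft subsets. With edgeR's quasi-likelihood F test and Benjamini-Hochberg adjustment over all genes tested (used for every adjusted p here, with calls at an adjusted p under 0.05), 13.4% of all genes were called. Of the 6 receptors, 3 were called: Il1rl1 (adjusted p = 4.66e-14), Il1r2 (adjusted p = 1.49e-06) and Il18r1 (adjusted p = 0.0486). Il18rap had an adjusted p of 0.131, and passed with ComBat-Seq (0.0149) or with only the compared subsets (0.0498). Il1rap had 0.897. Il1r1 had 0.357. The call of Il18r1 held in 3 of 8 other settings (adjusted p up to 0.167) and in 10 of 24 fits without 1 library (up to 0.13). Il1rl1 and Il1r2 were called in each of those settings and fits.

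Tregs were then compared with CD4+Foxp3- T cells of the spleen. On average, the 3 splenic Treg subsets had 67.7 CPM of Il1rl1 against 3.06 CPM in the CD4+Foxp3- subsets, a log2 fold change of 4.26 (SE 0.82, adjusted p = 0.000145), and this was the single receptor called where 1.83% of all genes were. The call held in 15 of 15 fits without 1 library, but its size depended on the library, with log2 fold changes of 3.95 to 6.15. Il1r2 had 89.8 against 16.3 CPM, which did not pass (log2 fold change 1.93, SE 0.68, adjusted p = 0.155). Il18r1 gave 0.04 (SE 0.48) and Il18rap -0.36 (SE 0.63) on the log2 scale.

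By subset against SP/naive CD4+ cells, Il1rl1 was the only receptor called in graft Tregs (0.619% of all genes called), SP/CD127hi Tregs (0.422%) and SP/naive Tregs (0.264%). The log2 fold change was 8.69 (SE 1.45, adjusted p = 7.33e-06) in graft Tregs, 8.13 (SE 1.42, adjusted p = 3.70e-05) in SP/CD127hi Tregs and 5.54 (SE 1.29, adjusted p = 0.0147) in SP/naive Tregs. Without SP/naive CD4+ replicate 2, which held all 5 read pairs of Il1rl1 in those cells, the fitted values were 12.47, 11.91 and 9.32, so 1 library set their size. Against libraries at 0 they depend on the prior count and are no bounds. The call in SP/CD127hi Tregs was lost with ComBat-Seq (log2 fold change 6.60, adjusted p = 0.0770), and that in graft Tregs held in all 8 other settings. The call in SP/naive Tregs was lost under 4 of 8 other settings and without SP/naive CD4+ replicate 1 or 3 (adjusted p = 0.0863 and 0.0699). In SP/CD127-/lo Tregs no receptor was called (0.469% of genes), and 3 had an unadjusted p under 0.05, as did 9.12% of genes. There Il1rl1 had a log2 fold change of 3.99 (SE 1.23, adjusted p = 0.17) and Il1r2 of 3.65 (SE 1.09, adjusted p = 0.136). Il1rl1 passed without SP/naive CD4+ replicate 2 (adjusted p = 0.0129), and Il1r2 passed when the fit held only the compared subsets (adjusted p = 0.0100).

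Against CD4+Foxp3- cells of the same tolerant spleens, Il1rl1 was higher in SP/CD127hi Tregs, with 166 against 5.58 CPM (log2 fold change 4.89, SE 1.19, adjusted p = 0.0228), and was the receptor called (0.324% of genes). This call was lost under 4 of 8 settings (adjusted p up to 0.386) and without any of SP/tolerant CD4+ replicates 1 or 3 or SP/CD127hi Treg replicate 3 (adjusted p = 0.165, 0.203 and 0.0566). Its size also depended on single libraries, with log2 fold changes of 4.30 to 7.29 in the fits without 1 library. In SP/CD127-/lo Tregs against the same cells no receptor was called (0.284% of genes), and 1, Il1r2, had an unadjusted p under 0.05, as did 7.2% of genes. Its levels were 168 against 19.3 CPM (log2 fold change 3.12, SE 1.06, adjusted p = 0.318), and it passed in the fit of the compared subsets alone (adjusted p = 0.00147).

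Within the Tregs of tolerant spleens, CD127hi and CD127-/lo cells did not overlap for 3 of 6 receptors, Il1rl1, Il18r1 and Il1r2, as for 10.6% of all genes. No receptor passed the adjustment, where 0.0907% of genes did. Unadjusted, 4 of the 6 had a p under 0.05, these and Il1r1, as did 6.74% of all genes. Il1rl1 had a log2 fold change of 4.15 (SE 1.15, adjusted p = 0.209), Il18r1 of 2.18 (SE 0.78, adjusted p = 0.458) and Il1r2 of -3.40 (SE 1.08, adjusted p = 0.448). In fits without 1 library, Il1rl1 ran from 3.78 to 4.86, Il18r1 from 1.94 to 2.45 and Il1r2 from -5.51 to -2.83. With only these 6 libraries in the fit, Il1rl1 (adjusted p = 0.00132) and Il18r1 (adjusted p = 0.0427) passed and Il1r2 came to 0.0547. Il18rap, at 72.6 against 19.6 CPM, had a log2 fold change of 1.89 (SE 1.01). The 5 T cell markers summed to 2963 to 3563 CPM in CD127hi and 6124 to 9636 CPM in CD127-/lo libraries, without overlap. The 6 macrophage and monocyte markers overlapped, at 121 to 244 and 7.30 to 299 CPM. The part of other cells in the receptor differences was not tested.

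Against SP/naive Tregs, SP/CD127hi Tregs had no receptor called (0.0197% of genes) and 4 with an unadjusted p under 0.05, as had 5.09% of genes. The values were 2.60 (SE 1.07) for Il1rl1, 1.53 (SE 0.76) for Il18r1, 2.12 (SE 1.02) for Il18rap and -2.42 (SE 1.04) for Il1r2, with adjusted p between 0.718 and 0.950. SP/CD127-/lo Tregs differed from SP/naive Tregs in no receptor that passed (0.071% of genes called), and none had an unadjusted p under 0.05. These comparisons share the naive or the CD127-/lo libraries and are not independent.

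Graft Tregs were compared with each splenic subset. Against SP/CD127hi Tregs, Il1rl1 (0.55, SE 1.01) and Il18r1 (-0.06, SE 0.75) had log2 fold changes smaller than their errors, and no receptor was called (0.103% of genes, with 2 receptors and 8.73% of genes at an unadjusted p under 0.05). One of those 2 was Il1r2, at 97.0 against 15.8 CPM (2.61, SE 1.04, adjusted p = 0.338), and the other Il1r1. Against SP/CD127-/lo Tregs no receptor was called (0.0829% of genes) and 2 had an unadjusted p under 0.05, as had 7.66% of genes. They were Il1rl1, with a log2 fold change of 4.70 (SE 1.18, adjusted p = 0.0753), and Il18r1, with 2.13 (SE 0.78, adjusted p = 0.353). Il1rl1 passed in 3 of 8 other settings, and without graft Treg replicate 2 or 3 (adjusted p = 0.0238 and 0.0244). Against SP/naive Tregs none was called (0.13% of genes), and Il1rl1 alone had an unadjusted p under 0.05, as did 7.93% of genes (log2 fold change 3.15, SE 1.09, adjusted p = 0.336). Against the mean of the 3 splenic Treg subsets, Il1rl1 was called (244 against 67.7 CPM, log2 fold change 2.80, SE 0.75, adjusted p = 0.0207), as were 1.44% of genes. That call was lost without graft Treg replicate 1, the library with 475 CPM (log2 fold change 1.88, adjusted p = 0.596), and under 4 of 8 settings. In the fit without that library Il1rap, at 0 in both other graft libraries, was called lower instead.

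**Figure D3:**
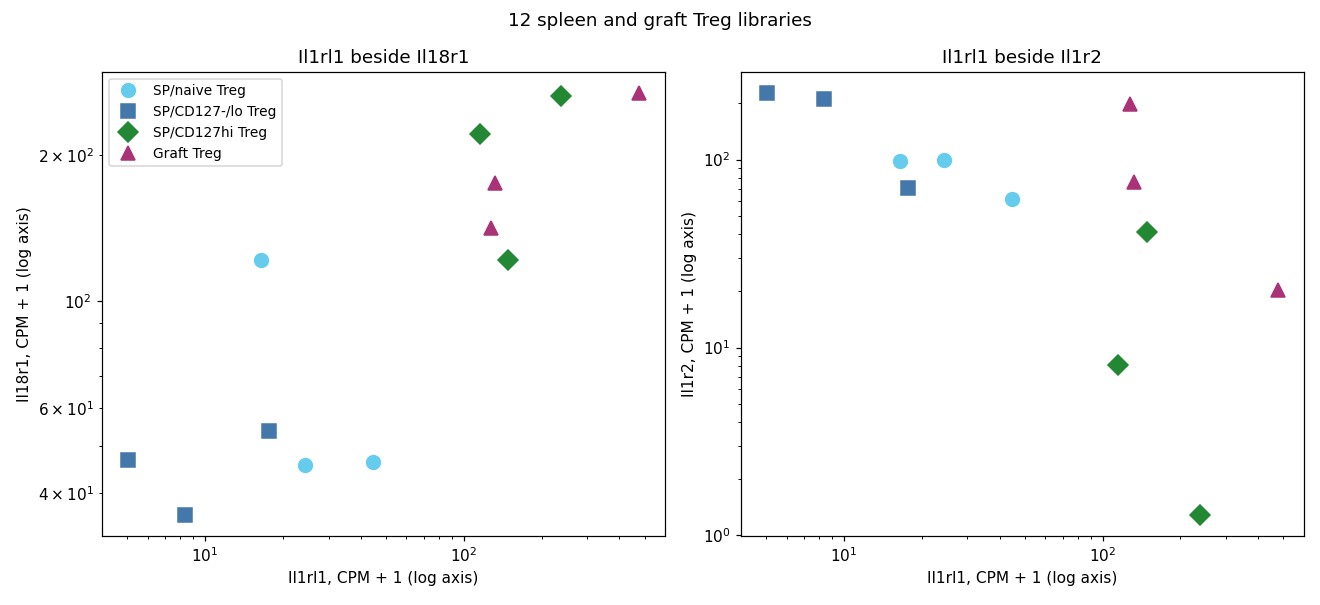
CPM plus 1 (log axes) of Il18r1 (left) and Il1r2 (right) against Il1rl1 in the 12 spleen and graft Treg libraries, marked by subset. The SP/CD127hi and graft libraries all lie at 114 CPM of Il1rl1 or above and at 120 CPM of Il18r1 or above, and SP/CD127hi libraries lie at or below 40.1 CPM of Il1r2.

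In the DLN, the receptors called were Il18rap and Il1r2. In DLN/CD127hi against DLN/naive Tregs, 2 of 6 receptors were called, and 0.951% of all genes. Il1r2 rose from 4.34 to 108 CPM (log2 fold change 4.60, SE 1.17, adjusted p = 0.0197). All 21 counts of DLN/naive Tregs came from replicate 3, so 1 library set the size of this change. With that library left out the remaining ones were at 0 and the fitted value was 11.32, which depends on the prior count and is no bound. Il18rap had 197 counts in 3 libraries against 3, an 89.6-fold ratio per read pair counted with a counting interval of 30.2 to 438 (95%, exact, counting error only), and an adjusted p of 0.00171, although 1 DLN/CD127hi library was at 0. Its call held in 6 of 6 fits without 1 library, at fitted log2 fold changes of 5.45 to 7.13. Il1rl1 had a log2 fold change of 1.42 (SE 1.04, adjusted p = 0.619) and Il18r1 of 1.45 (SE 0.77, adjusted p = 0.498). The median over all genes was 0.40 in the same direction and 0.60 with another scaling (RLE). Without DLN/naive Treg replicate 1 or 2, the call of Il1r2 was lost (adjusted p = 0.103 and 0.0992). With only the compared subsets in the fit, no receptor was called, and both had an adjusted p of 0.601.

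DLN/CD127-/lo Tregs differed from DLN/naive Tregs in Il18rap alone (98 counts against 3, a 35.8-fold ratio with a counting interval of 11.9 to 176, adjusted p = 0.0312), where 0.355% of genes were called. The median log2 fold change over all genes was 0.58 here (0.71 with RLE), and that over the 6 receptors was 0.58. The call of Il18rap was lost without DLN/naive Treg replicate 1 or 2 or DLN/CD127-/lo Treg replicate 3 (adjusted p = 0.0685, 0.107 and 0.0801). It held in 5 of 8 other settings (adjusted p up to 0.757). Fitted log2 fold changes without 1 library ran from 4.30 to 6.07. Il1r2 did not pass (61.7 against 4.34 CPM, adjusted p = 0.128) except without DLN/naive Treg replicate 3 (adjusted p = 0.000782). Between DLN/CD127hi and DLN/CD127-/lo Tregs no receptor was called (0.418% of genes), and none had an unadjusted p under 0.05. Summed over 6 macrophage and monocyte markers, the DLN/CD127hi libraries held 576 to 849 CPM, DLN/CD127-/lo libraries 102 to 718 CPM and DLN/naive libraries 2.80 to 428 CPM. The 6 CD8 T cell and NK cell markers summed to 310 to 452, 190 to 337 and 0 to 422 CPM in the same order, with Cd8b1, Klrb1c and Ncr1 at 0 in all DLN/naive libraries. The 4 B cell markers summed to 138 to 420, 75.8 to 160 and 3.10 to 36.9 CPM, with no overlap between DLN/naive Tregs and either tolerant fraction, and the highest was DLN/CD127hi Treg replicate 1, the library with 177 CPM of Il1rl1. The part of other cells in the DLN differences was not tested.

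The CD127hi effect was also compared between tissues. For Il1r2 it was -3.40 on the log2 scale in the spleen and 0.81 (SE 0.99) in the DLN, a difference of -4.21 (SE 1.45, adjusted p = 0.325). In fits without 1 library the Il1r2 difference ran from -6.32 to -3.64. No receptor was called for this difference (0.118% of genes), and 2, Il1r2 and Il1rl1, had an unadjusted p under 0.05, as did 7.82% of genes. Il1rl1 differed by 3.23 (SE 1.47, adjusted p = 0.569). It passed only without DLN/CD127hi Treg replicate 1, the library with 177 CPM (7.73, adjusted p = 0.0327).

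**Figure D4:**
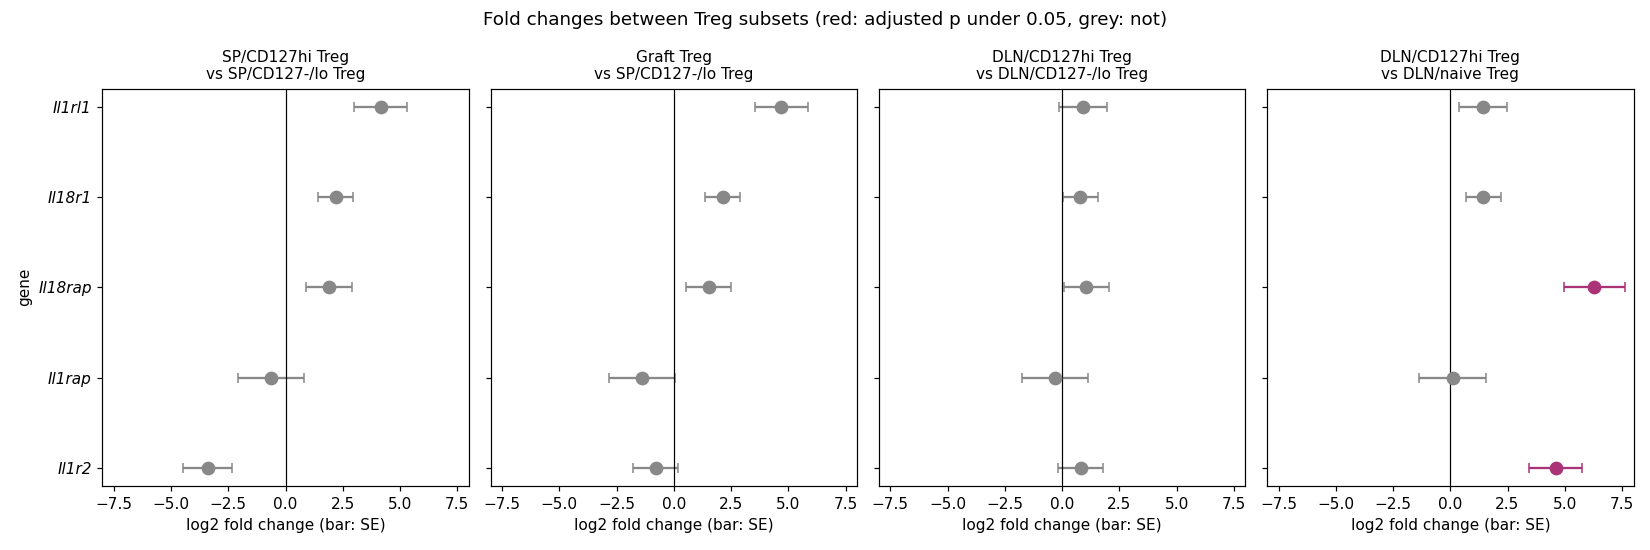
Log2 fold changes (points) with their SE (bars) of 5 receptor genes in 4 comparisons of Treg subsets, purple where the adjusted p was under 0.05 and grey otherwise. Il1r1 is left out because single libraries set its means. Il1r2 lies at -3.40 between the splenic subsets and at 4.60 between DLN/CD127hi and DLN/naive Tregs.

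Outside the Tregs, tolerant and naive mice did not differ in a receptor that passed. In CD45+CD4- cells 0.0355% of genes were called and no receptor had an unadjusted p under 0.05. There 2 of 6 receptors, Il18r1 and Il18rap, did not overlap, as 6.79% of all genes did not, with 44.1 against 88.8 CPM and 69.1 against 151 CPM in tolerant against naive mice (log2 fold changes -1.01, SE 0.76, and -1.13, SE 0.99). Beside Cd8a and Cd8b1, Cd3e was the 1 of 5 T cell markers that did not overlap there (81.0 against 150 CPM, adjusted p = 1), and the 4 B cell markers summed to 4028 to 5220 CPM in tolerant and 2251 to 3678 CPM in naive mice. The part of these cells in the receptor levels was not tested. In CD4+Foxp3- cells 0.107% of genes were called, and Il1rl1 alone of the receptors had an unadjusted p under 0.05, as did 7.01% of genes (5.58 against 0.528 CPM, adjusted p = 0.576). Between CD4+Foxp3- and CD45+CD4- cells, no receptor was called in naive spleens (1.04% of genes) or in tolerant spleens (1.53%). Unadjusted, Il18rap was the receptor under 0.05 in naive spleens, with 27.6 CPM in CD4+ and 151 CPM in CD4- cells (-2.46, SE 1.03, adjusted p = 0.334), beside 9.63% of genes. In tolerant spleens it was Il1r2, with 19.3 against 1.81 CPM (3.38, SE 1.11, adjusted p = 0.105), beside 11.5% of genes. In the 14 of 23 comparisons without a called receptor, the edgeR likelihood-ratio test and DESeq2 called none either.

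Of the ligands, Il33 and Il1a were scarce. Il33 was at 0 to 1.27 CPM in all libraries and Il1a at 0 to 8.96 CPM. Il1b, the inducible form of IL-1, was at 35.4, 64.6 and 124 CPM in CD45+CD4- cells of tolerant spleens and at 2.75, 9.13 and 20.3 CPM in those of naive spleens, without overlap, as 6.79% of all genes (log2 fold change 2.79, SE 1.75, adjusted p = 1). In the same libraries 5 neutrophil markers summed to 372 to 2800 CPM in tolerant and 45.2 to 622 CPM in naive spleens, and the mean of the macrophage gene Csf1r was 35.9 against 8.07 CPM. Their part in the Il1b level was not tested. It was at 0 in all SP/naive and SP/CD127-/lo Treg libraries. Il18 was at 17.7, 34.4 and 8.49 CPM in CD45+CD4- cells of tolerant spleens and at 0 in SP/tolerant CD4+ cells, at least 85.9-fold lower taking 3 counts over the group as the limit (adjusted p = 0.0229, called in 6 of 8 settings and 2 of 6 fits without 1 library, up to 0.153). Splenic Tregs had 0 to 45.4 CPM of Il18 and CD4+Foxp3- cells 1 count in all, a 408-fold ratio of counts per read pair with a counting interval of 73 to 16100 (adjusted p = 0.000519). Il1rn, the IL-1 receptor antagonist, likewise had 187 counts in the splenic Tregs and 1 in the CD4+Foxp3- cells (interval of the ratio 21.2 to 4750, adjusted p = 0.0372, called in 5 of 8 settings and 6 of 15 fits without 1 library, up to 0.156). SP/CD127hi Treg replicate 1 alone held 114 of those counts. The 6 macrophage and monocyte markers stood at 25.8 to 103 CPM in sum in SP/naive, 7.30 to 299 in SP/CD127-/lo and 121 to 244 in SP/CD127hi Tregs against 0 to 3.17 in SP/naive and 15.5 to 29.2 CPM in SP/tolerant CD4+ cells. The mean of Csf1r was 4.77, 10.3 and 16.7 CPM in these Treg subsets and 0.211 and 0.152 CPM in those CD4+ cells. The part of macrophages in the Il18 and Il1rn differences was not tested.

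The pathway was described with 44 further genes, all of which passed the filter. Between splenic Tregs and CD4+Foxp3- cells 6 of the 44 were higher and 1 was lower, where 1.83% of all genes were called, and the median log2 fold change was 0.49 against -0.08 over all genes. The lower one was Il1rl2, the IL-36 receptor gene of the same cluster (1.83 against 23.4 CPM, adjusted p = 0.0474). This call held in 5 of 8 settings and in 1 of 15 fits without 1 library (adjusted p up to 0.131). SP/naive CD4+ cells had 38.1, 34.5 and 52.1 CPM of it. SP/tolerant CD4+ cells had 5.24, 1.99 and 8.76 CPM and overlapped the Tregs, of which no library exceeded 8.49 CPM. Beside Il18 and Il1rn, the higher ones were Klrg1, an inhibitory receptor (2488 counts against 2, a 796-fold ratio with a counting interval of 220 to 6570, adjusted p = 2.46e-10), Areg, a tissue repair factor (11.9 CPM against 0 counts, at least 85.7-fold, adjusted p = 0.00169), Nfkbia, the NF-kB inhibitor (508 against 224 CPM, adjusted p = 0.00922), and Gata3, a transcription factor of type 2 lymphocytes (167 against 53.7 CPM, adjusted p = 0.0490). The call of Gata3 held in 4 of 8 settings (adjusted p up to 0.17) and in 1 of 15 fits without 1 library (up to 0.209).

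Klrg1 was called higher in each of the 4 Treg subsets against SP/naive CD4+ cells, and 1 of the 44 pathway genes was called in graft, SP/CD127-/lo and SP/naive Tregs and 2 in SP/CD127hi Tregs (beside 0.619%, 0.469%, 0.264% and 0.422% of all genes, in that order), where Nfkbia was the other (580 against 174 CPM, adjusted p = 0.0479). Nfkbia was called there in 0 of 6 fits without 1 library (adjusted p 0.0731 to 0.361), and in 6 of 8 settings. Klrg1 was called in 5 of 8 settings (up to 0.275) and 3 of 6 such fits (up to 0.102) in SP/naive Tregs, in 6 of 8 settings (up to 0.105) in SP/CD127-/lo Tregs, and in every setting in the other 2 subsets. Against SP/tolerant CD4+ cells, where Klrg1 was at 0, it was at least 626-fold higher in SP/CD127hi and 173-fold higher in SP/CD127-/lo Tregs. Among the splenic and graft Treg subsets, no pathway gene was called in a pairwise comparison. Gata3 was at 281, 224 and 248 CPM in SP/CD127hi Tregs and at 132, 84.5 and 111 CPM in SP/CD127-/lo Tregs, and Rora at 404, 233 and 238 against 100.3, 137 and 152 CPM. Of the 7 listed genes known with ST2+ Tregs, 3 (Gata3, Rora and Klrg1) were higher without overlap, 1 (Batf, 68.6 against 184 CPM) was lower without overlap, and 3 overlapped (Irf4, Pparg and Areg), beside the 10.6% of all genes that did not overlap. Against the mean of the splenic Tregs, where 1.44% of all genes were called, graft Tregs were at 0 counts of Il18bp, which neutralizes IL-18, at least 54.2-fold lower (adjusted p = 0.0142, called in 5 of 8 settings, up to 0.165, and 9 of 12 fits without 1 library, up to 0.0792). In the DLN the 1 called gene of the 44 (0.951% of all genes for CD127hi and 0.355% for CD127-/lo against naive Tregs) was Tollip, an adaptor that restrains IRAK signalling, at 0 in DLN/naive Tregs (adjusted p = 0.0317 against CD127hi and 0.0379 against CD127-/lo), but its level in each other DLN subset came mostly from 1 library, at 82.0 and 127 CPM, and each call held in 5 of 8 settings (adjusted p up to 0.757) and 2 of 6 fits without 1 library. In tolerant spleens 2 of the 44 differed between CD4+Foxp3- and CD45+CD4- cells, where 1.53% of all genes were called, Il18 and Rora (44.9 against 5.80 CPM, adjusted p = 0.0295, called in 5 of 8 settings, up to 0.188, and 3 of 6 fits without 1 library, up to 0.153). Myd88, the adaptor, was at 0 to 80.5 CPM in the libraries and was not called in any comparison.

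By Pearson correlation of log2 CPM over the 24 spleen and graft libraries, among 11980 genes reaching 5 CPM in at least 3 of them, the genes most like Il1rl1 were Fam129a (r = 0.867), Klrg1 (r = 0.854) and the EGFP reporter (r = 0.842). Most like Il1r2 were Tigit (r = 0.861), Fam3c (r = 0.843) and Rgs16 (r = 0.810). The nearest gene was mt-Nd3 for Il18r1 (r = 0.727), Mtm1 for Il18rap (r = 0.739) and Haus1 for Il1rap (r = 0.723), followed by Nrf1 and Traj14, Prpsap2 and Dhx9, and Trir and Smpd2 at r of 0.692 to 0.732. Il1r1 did not reach the level. The 24 libraries come from 8 subsets, 3 from each, so the points are not independent. By Spearman correlation, 3 of the 3 genes were shared for Il1r2, 2 for Il18r1, 1 each for Il1rl1 and Il1rap and 0 for Il18rap.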

How the data were processed

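Per the labels and the study's methods, SMART-Seq v4 libraries were sequenced, and the authors deposited unnormalized counts of read pairs per gene, over both strands, after Trim Galore trimming and STAR alignment (mm10 with EGFP added). The methods name HTSeq, whereas the layout is STAR's. Pairs without a gene or ambiguous between genes, together 21.0% to 62.0% of uniquely mapped pairs, were left out.

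Positions came from GENCODE vM21 (119 of 31054 identifiers unmatched). Counts were analysed in R 4.3.3. One edgeR 4.0.16 quasi-likelihood model with a mean per subset was fitted to all 33 libraries with TMM scaling, without a replicate term, and Benjamini-Hochberg adjustment. It was checked on simulated counts with the same dispersion for every gene, which does not cover the scatter of these data. SE is the absolute log2 fold change over the square root of F. Log2 CPM used a prior count of 2. Alternatives used DESeq2 1.42.0 and sva 3.50.0 (ComBat-Seq). Fits without 1 library kept the dispersion trend of all libraries. No 2 libraries of 1 subset agreed within sampling noise (pairs across subsets were not compared). Members, gene lists and comparisons were chosen with earlier results of these data known. Named genes were the receptors, their neighbours on the chromosome, up to 6 called pathway genes per comparison, Il33, Il18, Il1a, Il1b and Il1rn, and the 3 genes most correlated with each receptor. Gata3 and Rora in further places, Batf, Irf4, Pparg and Myd88 were named after their values were seen.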

Additional observations from a re-analysis of the deposited data

How the results depend on the processing

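The number of receptors called was the same in 150 of 184 other settings and 148 of 177 fits without 1 library, and the genes called were the same in 150 and 147. For any difference among the 8 spleen and graft subsets (3 receptors) it was 2 to 4 in other settings and 2 to 3 without 1 library. Single-gene results stayed on their side of the threshold in 500 of 583 and 747 of 855, and none changed direction. Fitting only the compared subsets gave 1 receptor for SP/CD127-/lo Tregs against either CD4+ subset and for graft against SP/CD127-/lo Tregs (0 in the full fit), 2 for SP/CD127hi against SP/CD127-/lo Tregs (from 0) and against SP/tolerant CD4+ cells (from 1), and 0 for SP/naive Tregs against SP/naive CD4+ cells and for both DLN fractions against DLN/naive Tregs. ComBat-Seq with the sequencer as batch left 0 in each of these last 3, in SP/CD127hi Tregs against either CD4+ subset and in graft Tregs against the mean of the splenic Tregs. At least 10 counts in 3 libraries gave 0 in SP/naive Tregs against SP/naive CD4+ cells, SP/CD127hi Tregs against SP/tolerant CD4+ cells, graft Tregs against that mean and DLN/CD127-/lo against DLN/naive Tregs, and 1 in DLN/CD127hi against DLN/naive Tregs. The likelihood-ratio test gave 0 in the first 3 of these, and DESeq2 gave 0 in SP/CD127hi Tregs against SP/tolerant CD4+ cells and graft Tregs against the mean. No filter gave 1 in graft against SP/CD127-/lo Tregs. The causes were not tested. With a replicate block, 1 receptor, Il1rl1, was called in SP/CD127-/lo Tregs against SP/naive CD4+ cells (adjusted p = 0.0175) and in graft against SP/CD127-/lo Tregs (adjusted p = 0.0422). Replicate numbers gave no clear pairing of the libraries: in 0 of 19 pairs of subsets did every same-numbered pair correlate above 0.1 over 5997 genes. Other matchings were not tried, so this check cannot show which libraries hold the same mice. Without 1 library, counts ranged from 0 to 1 for SP/CD127-/lo and SP/naive Tregs against SP/naive CD4+ cells, graft against SP/CD127-/lo Tregs, SP/CD127hi Tregs against SP/tolerant CD4+ cells and the difference between tissues, from 1 to 2 for DLN/CD127hi and from 0 to 2 for DLN/CD127-/lo against DLN/naive Tregs. In most libraries Il1r1, and in DLN/naive Tregs Il18rap, were at or under 3 counts, which are 1.64 to 3.11 CPM across the DLN. The part of depth was not tested.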
